A study of Graphilbum sp. with 6 samples.

Results

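Genes that build and remodel the fungal cell wall were followed in Graphilbum sp., a mould among the Ophiostomatales, whose mycelium was kept with or without the pine wilt nematode. The genes were chosen by description. A feature of the deposited table was taken where its best-hit description named a species of Sporothrix, Grosmannia, Ophiostoma or Esteya and held a wall word such as chitin, mannosyltransferase, mannosidase, gas1, GPI anchor or cell wall. This gave 45 features, out of 4613 with a best hit in those genera (Ophiostomatales-hit features) and 26694 in all. Of the 45 best hits, 24 lay in Sporothrix, 14 in Grosmannia and 7 in Ophiostoma. The 45 features fell in 44 read clusters of the assembly, so all but 1 pair came from separate clusters. The words glucan synthase, chitosanase and oligosaccharyltransferase matched 0 descriptions of this class. Enzymes that carry other names in their descriptions are not among the 45, and only some of them were sought, by a further word list given below.

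The nematode group holds 3 libraries, in which mycelium met about 300 Bursaphelenchus xylophilus over 24 h. This nematode lives in pines and also feeds on hyphae. The control group holds 3 libraries whose treatment label gives the 24 h alone, although the protocol text on exposure is the same for all 6 libraries. Mycelium of both groups was grown for 5 days at 28 °C on potato dextrose agar, then rinsed in phosphate-buffered saline. The labels name no strain and do not say what made the replicates separate, so p-values measure the spread between these libraries, which may be technical. The comparison asks which transcripts of the fungus differ when the nematode is present.

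The wall of a filamentous ascomycete is a layered mesh. Chitin synthases in the plasma membrane extrude chitin chains, and glucan chains are made beside them and are then cut, lengthened and joined outside the membrane by glucanosyltransferases and glucanases. Mannosyltransferases of the endoplasmic reticulum and Golgi load secreted proteins with mannose, and many wall proteins are held through a glycosylphosphatidylinositol (GPI) anchor. Chitinases and hexosaminidases loosen or recycle chitin during growth, branching and ageing of hyphae.

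The values are TPM, a length-scaled share of all transcripts of a library, so levels of different genes can be compared, and the number of reads behind them is unknown. In nematode replicates 1 to 3, Ophiostomatales-hit features made up 28.7%, 39.4% and 38.4% of all TPM, and in control replicates 1 to 3 they made up 68.5%, 69.4% and 70.0%. Features with no best hit or another best hit took the rest. For this reason each library was divided by its median ratio over the Ophiostomatales-hit features, and the result is called rescaled TPM. Every direction given below is thus relative to the Ophiostomatales-hit features. In TPM as deposited the median log2 fold change of these features was -0.82, and 42 of the 43 wall features tested there had a log2 fold change below 0, all but TRINITY_DN3305_c0_g1. TPM is a share, so a smaller part for these features does not by itself mean less hyphal RNA. In such bulk samples, fewer hyphal cells, less RNA per cell and added RNA of other organisms cannot be told apart. Control replicate 3 stood apart: across 4568 tested features it had a Pearson r of 0.962 and 0.959 with control replicates 1 and 2, which had 0.992 with each other, while the nematode libraries had 0.986 to 0.987 among themselves. Calls are therefore given with and without control replicate 3. Words for nematode genes (vitellogenin, cuticle collagen, major sperm protein, unc- and Bursaphelenchus) matched 1 feature of the whole table and 0 Ophiostomatales-hit features. The latter were chosen by fungal species name, so the 0 does not measure nematode RNA in the libraries. Spore words matched 80 features of the whole table, of which 1 was an Ophiostomatales-hit feature, and the levels of the others were not examined. That 1 feature was the conidiophore development protein hyma TRINITY_DN4113_c1_g3. It had 155, 144 and 173 rescaled TPM with nematodes and 176, 194 and 182 in controls (adjusted p = 0.511, and 0.156 without control replicate 3).

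All 45 wall features passed the filter on low values, and 0 of them passed the test with all 6 libraries in either direction. The test was limma's moderated test on log2(rescaled TPM + 1), adjusted by Benjamini-Hochberg over the 4568 Ophiostomatales-hit features tested, with a threshold of 0.05. Over all tested features, 0.613% were called higher and 0.0438% lower, or 0.657% in either direction. The smallest adjusted p among the wall features was 0.134. At an unadjusted p under 0.05, 12 of the 45 (26.7%) were higher with nematodes and 0 lower, against 7.07% and 3.74% of all tested features. In 13 of the 45 (28.9%), every nematode library lay above every control, and in 0 every nematode library lay below, against 10.5% and 7.79% of all tested features. The median log2 fold change was 0.06 over the wall features and -0.03 over all tested features, and every wall feature lay within 1 of 0 on this scale.

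The spread of the controls bore on these counts. Without control replicate 3, 12 of the 45 wall features (26.7%) were called higher and 4 (8.89%) lower, against 7.67% and 6.15% of all 4552 features then tested, and the median over the wall features was 0.09. The log2 fold changes of all 16 had the same sign with all 6 libraries. That fit also holds the libraries by which the 16 were called, so the shared sign is no separate support. With any other single library left out, 0 wall features were called, and the adjusted p of these 16 ranged from 0.297 to 0.996. Control replicate 3 was the highest of all 6 libraries for 7 wall features (15.6%) and the lowest for 15 (33.3%), against 30.3% and 28.2% of all tested features. It lay more than 2-fold from the mean of control replicates 1 and 2 in 7 of the 45, again 15.6%, against 8.38% of all tested features. What set control replicate 3 apart was not tested.

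**Figure D1:**
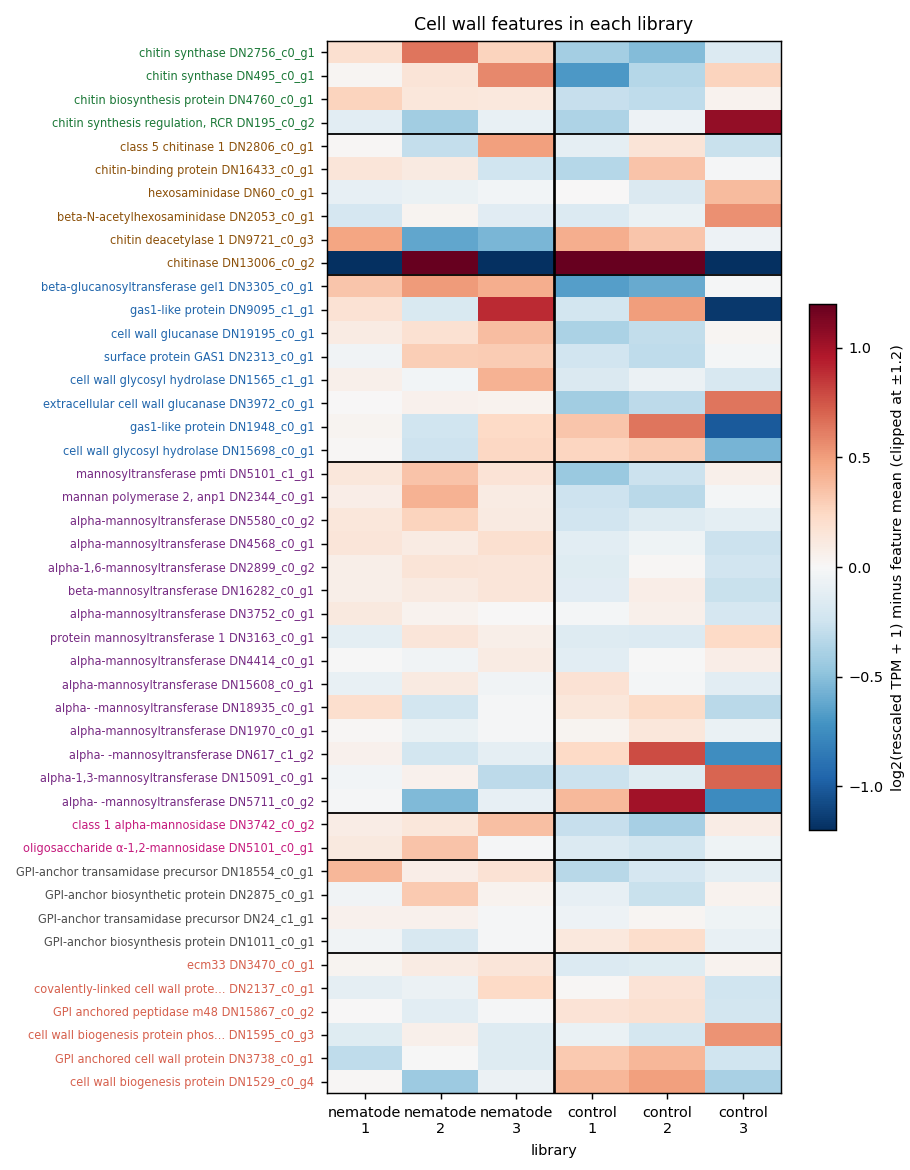
Level of the 45 wall features (rows, grouped by role, label colours as roles) in the 3 nematode and 3 control libraries (columns), as log2(rescaled TPM + 1) minus the mean of the feature over the 6 libraries, with red above 0, blue below, and colours clipped at ±1.2. Control replicate 3 often has the opposite colour to control replicates 1 and 2, as in the RCR protein of chitin synthesis and the gas1-like feature TRINITY_DN1948_c0_g1.

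Chitin synthesis was described by 4 features, of which 0 were called with all 6 libraries. Both features described as chitin synthase, the membrane enzyme that polymerizes chitin, had higher means with nematodes. TRINITY_DN2756_c0_g1, the more abundant of the pair, had 416, 568 and 437 rescaled TPM in nematode replicates 1 to 3 and 275, 253 and 325 in control replicates 1 to 3. The groups did not overlap, and the lowest nematode library stood above the highest control. The estimated log2 fold change was 0.73 ± 0.16 SE (95% interval 0.35 to 1.11, adjusted p = 0.137). Without control replicate 3 it was 0.84 ± 0.13 SE (adjusted p = 0.0149).

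The other chitin synthase, TRINITY_DN495_c0_g1, had a far lower level, at 17.3, 19.0 and 25.9 rescaled TPM with nematodes and 10.2, 13.2 and 20.7 in controls. Control replicate 3 lay within the nematode range here, so the groups overlapped. The log2 fold change was 0.51 ± 0.27 SE (adjusted p = 0.579), and 0.78 ± 0.20 SE without control replicate 3 (adjusted p = 0.0445). A feature described only as chitin biosynthesis protein, TRINITY_DN4760_c0_g1, had 188, 172 and 169.6 rescaled TPM with nematodes and 128, 126 and 161 in controls, with no overlap. Its estimate on the log2 scale was 0.36 ± 0.12 SE (adjusted p = 0.352), and 0.48 ± 0.08 SE without control replicate 3 (adjusted p = 0.0174).

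The fourth feature, TRINITY_DN195_c0_g2, is described as an RCR protein of chitin synthesis regulation and Congo red resistance, a family that in budding yeast limits chitin deposition. It was the most abundant of the chitin synthesis features, at 1364, 1111 and 1398 rescaled TPM with nematodes and 1152, 1429 and 3090.4 in controls. Control replicate 3 stood alone at more than 2-fold the other libraries, and the other 5 were mixed. The log2 fold change was -0.42 ± 0.36 SE (adjusted p = 0.728), and 0.01 ± 0.14 SE without control replicate 3 (adjusted p = 0.966). Summed over the 4 features, levels were 1985, 1869 and 2031 rescaled TPM with nematodes and 1564, 1821 and 3596 in controls, with the highest sum again in control replicate 3.

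**Figure D2:**
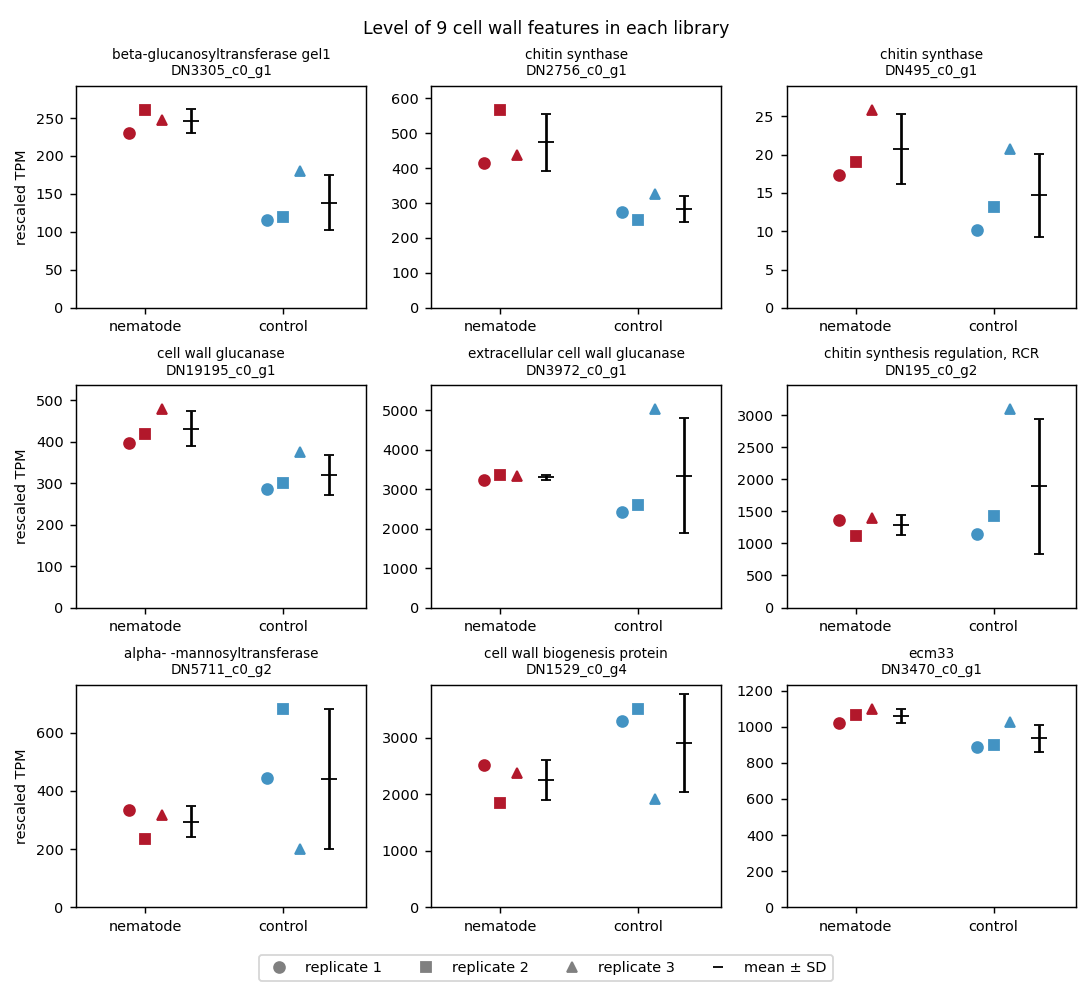
Level in rescaled TPM (y axis, from 0) of 9 wall features in each library, nematode left and control right in each panel. Symbols are replicates 1 to 3, and the bar beside each group is the mean ± SD (n = 3). The beta-glucanosyltransferase gel1, the chitin synthase TRINITY_DN2756_c0_g1 and the cell wall glucanase TRINITY_DN19195_c0_g1 have all nematode libraries above all controls, while control replicate 3 (triangle) lies apart in the glucanase TRINITY_DN3972_c0_g1, the RCR protein, the mannosyltransferase TRINITY_DN5711_c0_g2 and the cell wall biogenesis protein.

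Chitin breakdown and binding had 6 features, of which 0 were called with or without control replicate 3, and the groups overlapped in all 6. The main chitinase, an enzyme that cuts chitin chains, was the class 5 chitinase 1 TRINITY_DN2806_c0_g1, at 189, 153 and 263 rescaled TPM with nematodes and 173, 208 and 155 in controls. Its log2 fold change of 0.14 had a 95% interval of -0.36 to 0.65 (adjusted p = 0.842, and 0.866 without control replicate 3). Hexosaminidases release the single sugars of chitin fragments. The beta-N-acetylhexosaminidase TRINITY_DN2053_c0_g1 had 58.1, 68.4 and 61.0 rescaled TPM with nematodes and 59.7, 63.4 and 98.8 in controls. The hexosaminidase TRINITY_DN60_c0_g1 had 25.8, 26.2 and 27.1 with nematodes and 27.8, 24.4 and 36.4 in controls.

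Both hexosaminidases were level across 5 libraries and highest in control replicate 3. Without that library their log2 fold changes were 0.03 (95% interval -0.20 to 0.25) for TRINITY_DN2053_c0_g1 and 0.02 (-0.23 to 0.27) for TRINITY_DN60_c0_g1, so differences within these intervals were not resolved. The other 3 features had low levels. A further chitinase, TRINITY_DN13006_c0_g2, was listed at 0, 8.56 and 0 rescaled TPM with nematodes and at 7.37, 7.95 and 0 in controls, and its interval of -3.77 to 1.79 was the widest of the 45. The chitin deacetylase 1 TRINITY_DN9721_c0_g3, of a family that turns chitin into chitosan, had 2.36, 0.574 and 0.654 with nematodes and 2.27, 2.06 and 1.33 in controls. The chitin-binding protein TRINITY_DN16433_c0_g1 had 1.91, 1.84 and 1.23 with nematodes and 1.08, 2.33 and 1.61 in controls. Nothing about a direction can be read from these 3.

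Glucan remodelling had 8 features, and its leading feature had the smallest p of all 45. The beta-glucanosyltransferase gel1, TRINITY_DN3305_c0_g1, belongs to a family that splits beta-1,3-glucan chains and rejoins them to lengthen the mesh. It had 230.1, 261 and 247 rescaled TPM with nematodes and 115, 119.7 and 181 in controls. No nematode library overlapped a control, and control replicate 3 lay between the other controls and the nematode libraries. The mean was 246 ± 15.6 with nematodes and 139 ± 36.4 in controls (SD, n = 3 each), a ratio of 1.78. On the log2 scale the difference was 0.85 ± 0.18 SE (95% interval 0.42 to 1.28, adjusted p = 0.134), and 1.07 ± 0.08 SE without control replicate 3 (adjusted p = 0.00159).

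A second member of this family by name, the glycolipid anchored surface protein GAS1 TRINITY_DN2313_c0_g1, had 86.4, 109.6 and 110.8 rescaled TPM with nematodes and 76.0, 72.1 and 87.8 in controls. Nematode replicate 1 lay just below control replicate 3, and the other libraries were separated by group. For this feature the log2 fold change was 0.37 ± 0.14 SE (adjusted p = 0.391), and 0.46 ± 0.12 SE without control replicate 3 (adjusted p = 0.0462). Glucanases cut glucan chains in the wall. The cell wall glucanase TRINITY_DN19195_c0_g1 had 397, 419.7 and 479 with nematodes and 285, 301 and 375 in controls, with no overlap. Its log2 fold change was 0.44 ± 0.14 SE (adjusted p = 0.319), and 0.56 ± 0.10 SE without control replicate 3 (adjusted p = 0.0190).

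The extracellular cell wall glucanase TRINITY_DN3972_c0_g1 was the most abundant of all 45 wall features. It had 3228, 3351 and 3323 rescaled TPM with nematodes and 2414, 2592 and 5027 in controls. The nematode libraries lay close together, between control replicates 1 and 2 on one side and control replicate 3 on the other. With all 6 libraries the log2 fold change was 0.06 ± 0.29 SE (adjusted p = 0.958), and 0.41 ± 0.10 SE without control replicate 3 (adjusted p = 0.0437).

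Of the 2 features described as cell wall glycosyl hydrolase, TRINITY_DN1565_c1_g1 had 147, 138 and 189.9 rescaled TPM with nematodes and 125, 135 and 124 in controls, without overlap (log2 fold change 0.30 ± 0.14 SE, adjusted p = 0.503, and 0.187 without control replicate 3). TRINITY_DN15698_c0_g1 had 40.0, 33.3 and 47.2 with nematodes and 47.5, 49.2 and 26.6 in controls, and its groups overlapped (adjusted p = 0.998, and 0.225 without control replicate 3). The 2 features described as gas1-like protein carry an ambiguous name, since GAS1 is the glucanosyltransferase in budding yeast and an unrelated infection protein in the rice blast fungus. TRINITY_DN1948_c0_g1 had 118, 97.5 and 137 with nematodes and 145, 181 and 56.8 in controls. TRINITY_DN9095_c1_g1 had 26.0, 20.1 and 43.5 with nematodes and 19.6, 32.8 and 9.73 in controls. In both, control replicate 3 was the lowest library and the groups overlapped, and the adjusted p was 0.991 and 0.718, or 0.0833 and 0.744 without control replicate 3. With all 6 libraries the 8 log2 fold changes of this role ran from 0.00 to 0.85, all above 0, as were 64.4% over the 45 wall features and 44.8% over all tested features. Without control replicate 3, 6 lay above 0 and 2 below, TRINITY_DN1948_c0_g1 at -0.47 and TRINITY_DN15698_c0_g1 at -0.27. Of the 8, 4 were then called higher and 0 lower, against 7.67% and 6.15% of all features tested without that library.

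Mannosyl transfer was the largest role, with 15 features, 0 of them called with all 6 libraries. These enzymes build the mannose chains of secreted and wall proteins, and most descriptions do not say which bond is made. In 5 of the 15, every nematode library lay above every control, and in 0 below, against 10.5% and 7.79% of all tested features. The alpha-mannosyltransferase TRINITY_DN5580_c0_g2 had 112, 122 and 109.5 rescaled TPM with nematodes and 86.7, 91.3 and 93.9 in controls. Its control spread was small, and the log2 fold change was 0.34 ± 0.09 SE (adjusted p = 0.228), or 0.37 ± 0.08 SE without control replicate 3 (adjusted p = 0.0333).

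The mannosyltransferase pmti TRINITY_DN5101_c1_g1 carries the name of the enzymes that put the first mannose on serine and threonine. It had 75.0, 87.1 and 76.5 rescaled TPM with nematodes and 50.0, 57.1 and 71.2 in controls (log2 fold change 0.43 ± 0.15 SE, adjusted p = 0.354). The anp1 subunit of mannan polymerase 2, TRINITY_DN2344_c0_g1, which in budding yeast extends the mannan backbone, had 127, 161 and 129 with nematodes and 101, 95.7 and 118 in controls (log2 fold change 0.40 ± 0.13 SE, adjusted p = 0.338). Neither pair of groups overlapped. Without control replicate 3 both passed the test, with a log2 fold change of 0.57 for TRINITY_DN5101_c1_g1 (adjusted p = 0.0199) and 0.49 for TRINITY_DN2344_c0_g1 (adjusted p = 0.0355).

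The alpha-mannosyltransferase TRINITY_DN4568_c0_g1 had 155, 151 and 160.3 rescaled TPM with nematodes and 128, 136 and 117 in controls (log2 fold change 0.29 ± 0.09 SE, adjusted p = 0.321). The alpha-1,6-mannosyltransferase TRINITY_DN2899_c0_g2 had 42.0, 44.7 and 44.4 with nematodes and 36.2, 40.3 and 33.9 in controls (log2 fold change 0.24 ± 0.11 SE, adjusted p = 0.485). Both were separated by group. Without control replicate 3 the adjusted p was 0.0736 for TRINITY_DN4568_c0_g1 and 0.180 for TRINITY_DN2899_c0_g2.

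Features with an Ophiostoma best hit and the description alpha- -mannosyltransferase, in which the numbers of the bond are missing, had lower means with nematodes. TRINITY_DN5711_c0_g2 had 335, 234 and 316 rescaled TPM with nematodes and 445, 682 and 200.4 in controls. TRINITY_DN617_c1_g2 had 157, 131 and 141 with nematodes and 179.8, 262 and 90.5 in controls. In both, control replicates 1 and 2 were the highest libraries and control replicate 3 the lowest. The log2 fold changes were -0.43 ± 0.42 SE for TRINITY_DN5711_c0_g2 and -0.19 ± 0.35 SE for TRINITY_DN617_c1_g2 (adjusted p = 0.760 and 0.878). Without control replicate 3 it was -0.91 ± 0.21 SE for the first (adjusted p = 0.0358) and -0.60 ± 0.16 SE for the second (adjusted p = 0.0497), the only mannosyl transfer features called lower. The third feature with this description, TRINITY_DN18935_c0_g1, had 308, 230.3 and 266 with nematodes and 295, 314 and 215 in controls, and was not called either way.

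The other 7 mannosyltransferases had overlapping groups and log2 fold changes between -0.20 and 0.21. With control replicate 3 left out these ran from -0.10 to 0.20, with adjusted p from 0.169 to 0.787. They included protein mannosyltransferase 1, TRINITY_DN3163_c0_g1, at 150.0, 180.2 and 171 rescaled TPM with nematodes and 146, 145 and 193 in controls. Its nematode libraries lay above control replicates 1 and 2 but not above control replicate 3, and its log2 fold change was 0.06, or 0.20 without that library. The alpha-mannosyltransferase TRINITY_DN3752_c0_g1 was the most abundant of them, at 311, 296 and 288 with nematodes and 282, 299 and 250.2 in controls. Means lay close together for TRINITY_DN4414_c0_g1, at 138 ± 7.24 with nematodes and 135 ± 9.94 in controls (SD, n = 3 each), with a 95% interval of -0.20 to 0.27 for the log2 fold change. TRINITY_DN1970_c0_g1 (-0.06), TRINITY_DN15608_c0_g1 (-0.02), TRINITY_DN16282_c0_g1 (0.21) and TRINITY_DN15091_c0_g1 (-0.20) made up the rest, the values being log2 fold changes. Summed over the 15 features, levels were 2113, 1973 and 2053 with nematodes and 2075, 2473 and 1711 in controls, so the groups overlapped.

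Mannosidases trim mannose from new glycoproteins in the endoplasmic reticulum and Golgi. Both features had all nematode libraries above all controls, as had 10.5% of all tested features. The class 1 alpha-mannosidase TRINITY_DN3742_c0_g2 had 60.3, 62.0 and 72.9 rescaled TPM with nematodes and 46.4, 42.7 and 60.0 in controls. Its highest control came within 1 rescaled TPM of the lowest nematode library. The log2 fold change was 0.39 ± 0.15 SE (adjusted p = 0.434), and 0.54 ± 0.11 SE without control replicate 3 (adjusted p = 0.0267). The mannosyl-oligosaccharide alpha-1,2-mannosidase TRINITY_DN5101_c0_g1 had 80.9, 94.8 and 73.8 with nematodes and 66.6, 64.0 and 72.0 in controls. On the log2 scale its estimate was 0.29 ± 0.12 SE (adjusted p = 0.456), and 0.34 ± 0.11 SE without control replicate 3 (adjusted p = 0.0802). The alpha-1,2-mannosidase shares its read cluster with the mannosyltransferase TRINITY_DN5101_c1_g1, the 1 pair of wall features that does.

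GPI anchor assembly had 4 features. GPI-anchor transamidase attaches the finished anchor to proteins, and 2 features carried this description. TRINITY_DN18554_c0_g1 had 117, 93.8 and 100.5 rescaled TPM with nematodes and 70.4, 76.9 and 81.6 in controls, with no overlap. The log2 fold change was 0.44 ± 0.12 SE (adjusted p = 0.224), and 0.49 ± 0.11 SE without control replicate 3 (adjusted p = 0.0344). TRINITY_DN24_c1_g1 had 53.1, 53.2 and 50.8 with nematodes and 49.2, 52.1 and 49.5 in controls. All 6 of its libraries lay close together (95% interval -0.16 to 0.27 for the log2 fold change), so the 2 transamidase features had different patterns, although the difference between them was not tested. The anchor synthesis features TRINITY_DN1011_c0_g1 and TRINITY_DN2875_c0_g1 had log2 fold changes of -0.16 (adjusted p = 0.697) and 0.21 (adjusted p = 0.664), with overlapping groups and no call without control replicate 3.

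Wall proteins and organization had 6 features, with overlapping groups in all 6. The GPI-anchored cell wall organization protein ecm33, TRINITY_DN3470_c0_g1, of a family that yeasts and moulds need for an intact wall, had 1019, 1065 and 1099 rescaled TPM with nematodes and 889, 898 and 1024 in controls. Its log2 fold change was 0.18 ± 0.11 SE (adjusted p = 0.638), and 0.25 ± 0.08 SE without control replicate 3 (adjusted p = 0.0808). The cell wall biogenesis protein TRINITY_DN1529_c0_g4, the second most abundant wall feature, had 2523, 1851 and 2376 with nematodes and 3299, 3511 and 1908 in controls. Control replicate 3 lay with the nematode libraries. The log2 fold change was -0.33 ± 0.27 SE (adjusted p = 0.722), and -0.60 ± 0.15 SE without control replicate 3 (adjusted p = 0.0433).

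The GPI anchored cell wall protein TRINITY_DN3738_c0_g1 had the same arrangement, at 40.6, 50.2 and 45.1 rescaled TPM with nematodes and 63.0, 66.8 and 42.6 in controls. With all 6 libraries the log2 fold change was -0.31 ± 0.19 SE (adjusted p = 0.616), and -0.51 ± 0.11 SE without control replicate 3 (adjusted p = 0.0301). The covalently-linked cell wall protein TRINITY_DN2137_c0_g1 had 107, 109.9 and 136 with nematodes and 117, 129.6 and 97.7 in controls. The cell wall biogenesis protein phosphatase TRINITY_DN1595_c0_g3 had 188, 217 and 186 with nematodes and 196, 178 and 301 in controls. Neither was called with or without control replicate 3. The description GPI anchored peptidase m48 of TRINITY_DN15867_c0_g2 names a protease, so the word alone brought it into the list. It had 148, 135 and 146 with nematodes and 165, 168 and 126 in controls (log2 fold change -0.09, adjusted p = 0.842). Leaving out control replicate 3 gave -0.22 (adjusted p = 0.0988).

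**Figure D3:**
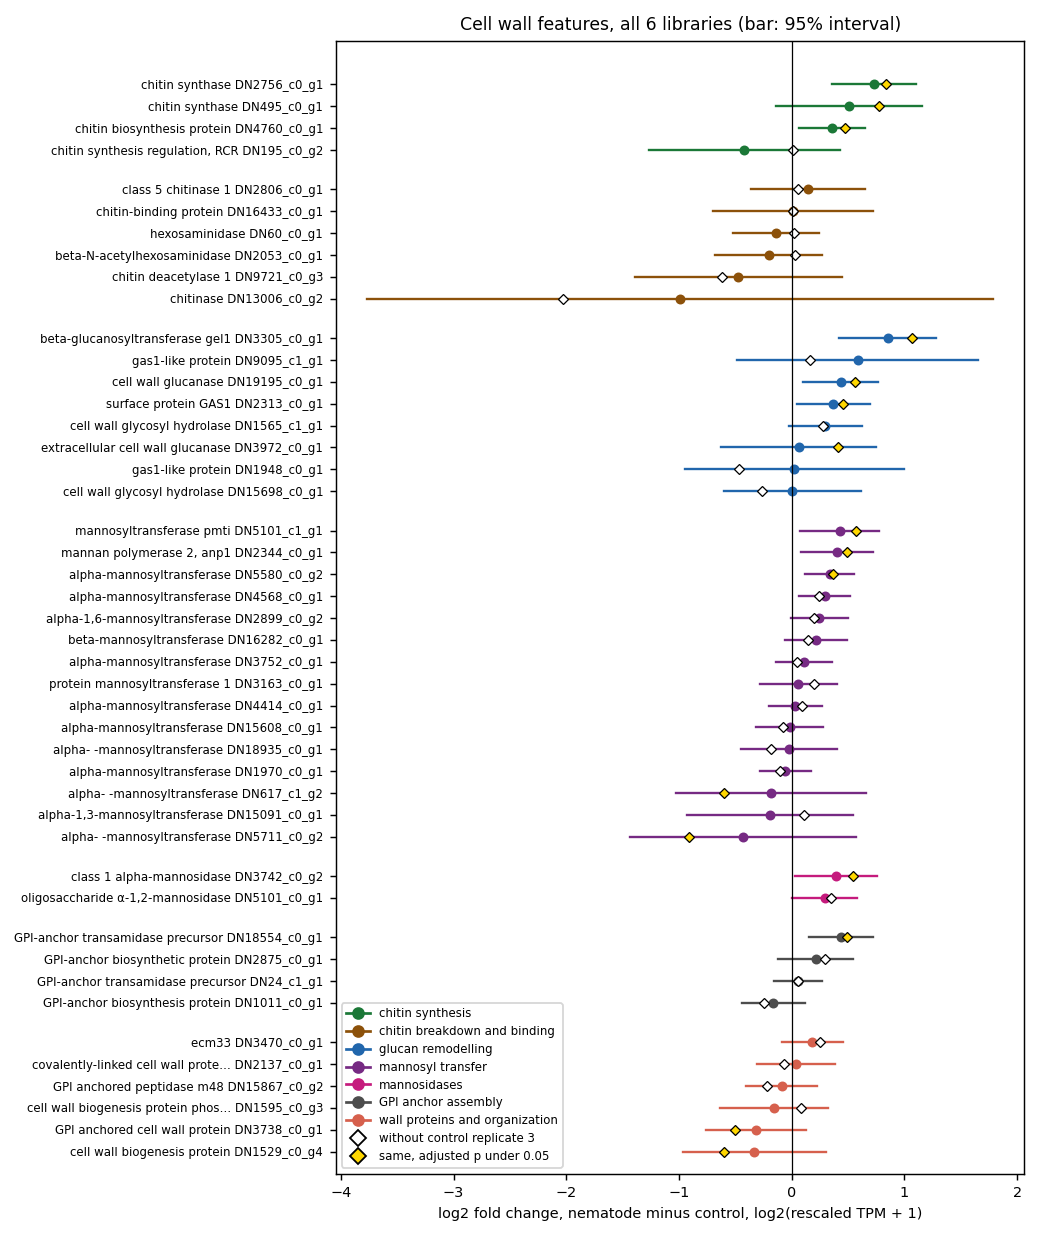
Log2 fold change, nematode minus control, of the 45 wall features by role (x axis, log2(rescaled TPM + 1) scale). Circles and bars are the estimate and its 95% interval with all 6 libraries, and diamonds the estimate without control replicate 3, filled where the adjusted p was under 0.05. Circles of the glucan remodelling features lie at or above 0, while 2 of their 8 diamonds lie below 0, the widest bar is that of the chitinase TRINITY_DN13006_c0_g2, and 16 diamonds are filled, 12 right and 4 left of 0.

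Other genes of the pathway were taken by a further word list for sugar nucleotide supply, glucan cutting and wall signalling, which matched 10 Ophiostomatales-hit features outside the 45. Of these 10, 0 were called with all 6 libraries. Without control replicate 3, 2 were called higher and 0 lower, against 7.67% and 6.15% of all features then tested. The smallest p was that of the UDP-N-acetylglucosamine pyrophosphorylase TRINITY_DN475_c0_g4, which makes the substrate of chitin synthase. It had 318, 335 and 357 rescaled TPM with nematodes and 228, 233 and 249 in controls, and the groups were well apart. Its log2 fold change was 0.51 ± 0.09 SE (adjusted p = 0.101), and 0.55 ± 0.08 SE without control replicate 3 (adjusted p = 0.0116).

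The beta-glucanase TRINITY_DN396_c1_g1 had 1396, 1258 and 1545 rescaled TPM with nematodes and 871, 939 and 1312 in controls (adjusted p = 0.456, and 0.0193 without control replicate 3). The protein kinase C substrate 80K-H TRINITY_DN20201_c0_g1, a name of the beta subunit of glucosidase II, which trims glucose from new glycoproteins, had 96.3, 91.2 and 91.9 with nematodes and 77.2, 79.5 and 72.1 in controls (adjusted p = 0.309, and 0.0677 without control replicate 3). The UTP-glucose-1-phosphate uridylyltransferase TRINITY_DN5427_c0_g2, which makes the sugar donor of wall glucan, had 314, 389.9 and 363 with nematodes and 338, 311 and 406 in controls. The groups of this last enzyme overlapped (log2 fold change 0.02, 95% interval -0.31 to 0.35). The other 6 matches had log2 fold changes from -0.21 to 0.51, and 1 of them, TRINITY_DN1493_c1_g2, is a cyclin-dependent kinase component that the words matched by spelling alone.

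**Figure D4:**
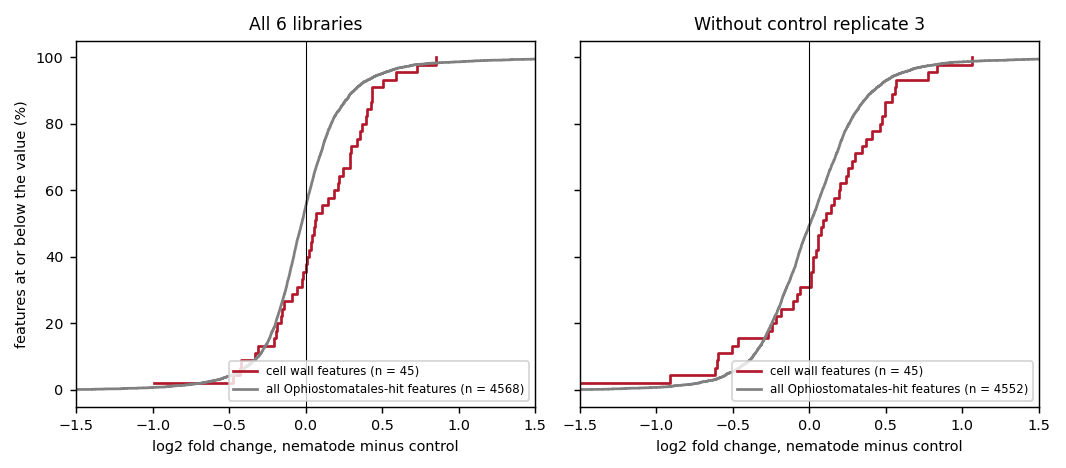
Share of features (y axis, %) with a log2 fold change, nematode minus control, at or below the value on the x axis, for the wall features and for all tested Ophiostomatales-hit features, with all 6 libraries (left) and without control replicate 3 (right). Between 0 and 0.5 the line of the wall features runs right of the line of all tested features in both panels, with medians of 0.06 against -0.03 on the left. The x axis ends at ±1.5, which leaves out 1 wall feature on the right, the chitinase TRINITY_DN13006_c0_g2 at -2.03.

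In TPM as deposited, most of these features had a lower level with nematodes. There 29 of the 43 wall features that could be tested were lower and 0 higher, against 82.8% lower and 0.583% higher of the 4463 Ophiostomatales-hit features tested. The median log2 fold change was -0.72 for the wall features and -0.82 for all of them. These calls followed the size of the fold change more than each feature's own spread. The chitinase TRINITY_DN13006_c0_g2 had 0, 3.73 and 0 TPM with nematodes and 4.93, 5.12 and 0 in controls. Its adjusted p in the moderated test was 0.00378 there, against 0.807 in rescaled TPM. The wall features together held 0.389%, 0.547% and 0.541% of all TPM in nematode replicates 1 to 3 and 0.831%, 0.878% and 1.04% in control replicates 1 to 3. Their share of the Ophiostomatales-hit TPM alone was 1.35%, 1.39% and 1.41% with nematodes and 1.21%, 1.27% and 1.49% in controls, where the groups overlapped through control replicate 3.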

How the data were processed

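RNA from hyphae was sequenced, per the labels' protocols, as 3 nematode and 3 control libraries. The authors deposited 1 table of TPM with feature names of the Trinity form; no assembler or aligner, nor a version of either, is stated in the labels or the file (not given in the sources used here), and the authors' group mean columns were not used. Depth is unknown from TPM, so no counting interval is given.

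Ophiostomatales-hit features were divided, per library, by the median ratio to their geometric mean over libraries (4505 features above 0 in every library). Features with at least 1 rescaled TPM in at least 3 libraries were fitted as log2(value + 1) in R 4.3.3 with limma 3.58.1 (trended eBayes, no covariate), adjusted by Benjamini-Hochberg at 0.05. A fold change on this scale understates changes of low features. An exact permutation of 3 against 3 libraries cannot go below 0.1, so none was used. The scripts were tested on simulated data.

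The members, word lists and tests were chosen with earlier results of these data known. Roles were read by hand from the descriptions. Named were features past the threshold, and in each keyword role up to 4 of smallest p and 2 of highest level; other members, and TRINITY_DN5427_c0_g2 and TRINITY_DN1493_c1_g2, were added to these after their values were seen, so as to account for the list. Same-numbered replicates did not deviate together, so no pairing was used. Alternatives covered the pseudocount, filter, scaling (TMM, quantile, summed TPM, none), model, replicate block and omission of each library.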

Additional observations from a re-analysis of the deposited data

How the results depend on the processing

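The count of 0 wall features called in either direction held under other pseudocounts (0.1 and 5 TPM), filters (none and 5 TPM), TMM, quantile and summed-TPM scaling, a replicate block, and eBayes without trend or robust. It was 12 higher and 4 lower without control replicate 3, and 0 with each other library left out, so omissions ranged from 0 to 12 higher and 0 to 4 lower. In TPM as deposited, with no division by the class, 29 were lower and 0 higher, in a fit whose calls depended less on each feature's own spread. The median log2 fold change of the wall features was 0.087 with a filter of 5 TPM, 0.11 after quantile normalization, 0.20 after scaling by summed TPM and -0.72 in TPM as deposited, and 0.060 to 0.15 over the omissions, against 0.06. Among all Ophiostomatales-hit features, 28 were higher and 2 lower. These became 48 and 0 with summed TPM, 12 and 0 with the replicate block, 26 and 3695 in TPM as deposited, 27 and 1 with robust eBayes, and 7 to 349 and 0 to 280 over the omissions. Among the omissions, that of control replicate 3 alone raised these counts.

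In TPM as deposited, 14 wall features with a positive rescaled estimate were called lower. Those named by the rule were TRINITY_DN3470_c0_g1 (-0.65), TRINITY_DN2875_c0_g1 (-0.58), TRINITY_DN2806_c0_g1 (-0.68), TRINITY_DN4568_c0_g1 (-0.54), TRINITY_DN3752_c0_g1 (-0.72), TRINITY_DN1565_c1_g1 (-0.53), TRINITY_DN3972_c0_g1 (-0.77) and TRINITY_DN1948_c0_g1 (-0.80). The fits differ in library scaling and in how far each feature's own spread entered the test. The log2 scale factors were -0.76, -0.19 and -0.32 in nematode replicates 1 to 3. In control replicates 1 to 3 these factors were 0.43, 0.38 and 0.43. What lowered the share of Ophiostomatales-hit features was not tested. Outside TPM as deposited and the omissions, the adjusted p of the 16 features called without control replicate 3 ranged from 0.0629 to 0.978. Same-numbered libraries had correlations of their deviations of 0.15, -0.43 and -0.28 for replicates 1 to 3, so they did not deviate together. With 3 libraries per group this cannot show whether the samples were set up in pairs. The unknown depth limits what can be said of features near 1 TPM.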

Other observations

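The same wall words matched 24 features outside the 4 genera, with other fungi as best hit. Of these, 15, 13 and 16 were at 1 TPM or more in nematode replicates 1 to 3, against 8, 6 and 1 in control replicates 1 to 3, in TPM as deposited. At least 1 TPM in every nematode library and under 1 TPM in every control was found for 12 of the 24 (50%). The background share was 65.9% over all 8847 features with a best hit outside the 4 genera, and the difference was not tested. The 12 held all 5 features of chitin breakdown and 4 of 6 mannosidases and mannanases, and with that background nothing particular to these is read from the counts. The chitinase TRINITY_DN5500_c0_g1, with a best hit in Ceratobasidium, had 43.3, 38.7 and 33.7 TPM with nematodes and was listed at 0 in the 3 controls. TRINITY_DN7918_c0_g1, a chitinase domain-containing protein with a best hit in Endogone, had 36.7, 20.6 and 28.9 TPM and was likewise listed at 0 in the controls. The features described as chitin synthase 4 (TRINITY_DN18386_c0_g1, Trichoderma) and 1,3-beta-glucan synthase (TRINITY_DN14144_c0_g1, Geosmithia) were listed at 0 in all nematode libraries and at 7.65 and 2.97 TPM in 1 control each. A best hit marks similarity to a database entry, and the organism these transcripts came from was not tested.

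Wall features with an Ophiostoma best hit shared a pattern in the controls that was noticed after their values were seen. In all 7, control replicate 3 was the lowest control, with a median log2 difference of -1.25 from the mean of control replicates 1 and 2. Among the wall features this was so for 7 of 24 with a Sporothrix hit and 7 of 14 with a Grosmannia hit. Over all 606 tested features with an Ophiostoma hit it was so for 45.4%, with a median difference of 0.00.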
